A study of Mus musculus with 14 samples.

Results

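The 10 genes Pclo, Bsn, Rims1, Rims2, Unc13a, Erc1, Erc2, Ppfia2, Syn1 and Syt1 were followed through newborn mouse cortex, out of 51626 gene symbols in the deposited tables. They were chosen by name, with earlier results of these data known, and the transcript rows of each symbol were summed in all 3 tables. The first 8 encode proteins of the presynaptic active zone, and Syn1 and Syt1 encode proteins of the synaptic vesicle that docks there. RNA was sequenced in 14 libraries, all from postnatal day 0.5. The frontal cortex set, made from polyA RNA of rostral cortex, held 4 libraries of the Auts2 conditional knockout (cKO) and 4 of wild type C57BL6/J mice. The cKO carried loxP sites around exon 15 of both Auts2 alleles and Emx1-Cre on C57BL6/J. Emx1 drives Cre in the progenitors of cortical excitatory neurons and of part of the glia, so interneurons, microglia and vessels of the same tissue keep the gene. The wild type mice are labelled with neither the floxed allele nor Cre, and no group with Cre alone was analysed here. The RNA immunoprecipitation (RIP) set, made from total RNA of C57BL6/J cortex, held 2 AUTS2 pull-downs, 2 IgG pull-downs and 2 libraries of 10% input RNA. The antibody was raised to the carboxy-terminal end of AUTS2. The libraries came as matched trios A and B, each from the divided cortex of 2 pooled neonates.

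The active zone is the patch of presynaptic membrane where vesicles dock, are primed and fuse when calcium enters. A web of large scaffold proteins holds calcium channels and vesicles together there, and at birth the cortex is building its first synapses. AUTS2 is a protein linked to autism and intellectual disability that acts in the nucleus on transcription and in the cytoplasm on the cytoskeleton. The pull-down asked which RNAs travel with AUTS2, and the cKO asked which RNAs change in level when Auts2 is deleted.

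Piccolo and bassoon, the giant scaffolds, are encoded by Pclo (chr5:14514918-14863459, plus strand, GRCm38) and Bsn (chr9:108096022-108190384, minus strand). RIM proteins bind vesicle Rab3 and tether calcium channels, and they are encoded by Rims1 (chr1:22286251-22805994, minus) and Rims2 (chr15:39198261-39684372, plus). Unc13a (chr8:71624417-71671757, minus) encodes Munc13-1, which opens syntaxin to prime vesicles. The ELKS proteins, which link RIM to the scaffold, come from Erc1 (chr6:119570796-119848167, minus) and Erc2 (chr14:27622428-28478537, plus). Ppfia2 (chr10:106470339-106935952, plus) encodes liprin-alpha2, a protein that gathers the scaffold. Syn1 (chrX:20860511-20921004, minus) encodes synapsin I, which clusters vesicles, and Syt1 (chr10:108497650-109010982, minus) encodes synaptotagmin 1, the calcium sensor of fast release. All 10 loci overlap other annotated genes, and no source used here gives the strand setting of the counting, so reads of overlapping genes may be shared.

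Several of the genes are listed as more than 1 protein-coding transcript, and coding exons that tell these forms apart are shown because the pull-down values below are given per form. Each sequence is read from GENCODE vM21 transcripts on GRCm38 in the 5′ to 3′ direction of the RNA, with the alternative exon in capitals and 15 bases of each neighbouring exon in lower case. Exon 42 of Unc13a-208 (chr8:71633439-71633495, 57 bases) is absent from Unc13a-201. Exons 2 and 3 of Rims2-202 (chr15:39274976-39275008, 33 bases, and chr15:39275414-39275500, 87 bases) are absent from Rims2-201, while exons 17 and 18 of Rims2-201 (chr15:39517806-39517871, 66 bases, and chr15:39534838-39535017, 180 bases) are absent from Rims2-202. Exon 23 of Pclo-201 (chr5:14855543-14855677, 135 bases) is one of the 3′ exons that Pclo-202 lacks, and exons 21, 22 and 24, which it lacks too, are not printed.
Unc13a-208 exon 42: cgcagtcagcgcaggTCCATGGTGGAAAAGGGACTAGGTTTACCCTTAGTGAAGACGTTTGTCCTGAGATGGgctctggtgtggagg
Rims2-202 exon 2: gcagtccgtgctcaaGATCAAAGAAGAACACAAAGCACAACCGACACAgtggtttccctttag
Rims2-202 exon 3: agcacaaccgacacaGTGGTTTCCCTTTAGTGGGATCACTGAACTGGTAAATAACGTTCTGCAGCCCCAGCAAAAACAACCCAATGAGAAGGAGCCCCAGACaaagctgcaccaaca
Rims2-201 exon 17: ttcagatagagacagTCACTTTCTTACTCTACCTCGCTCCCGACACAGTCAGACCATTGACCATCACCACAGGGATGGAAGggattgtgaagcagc
Rims2-201 exon 18: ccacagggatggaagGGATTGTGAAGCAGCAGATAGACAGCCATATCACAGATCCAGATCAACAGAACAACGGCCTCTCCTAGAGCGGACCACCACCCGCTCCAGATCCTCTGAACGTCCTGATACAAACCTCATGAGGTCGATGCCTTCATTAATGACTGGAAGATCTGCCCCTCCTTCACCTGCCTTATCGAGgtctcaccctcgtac
Pclo-201 exon 23: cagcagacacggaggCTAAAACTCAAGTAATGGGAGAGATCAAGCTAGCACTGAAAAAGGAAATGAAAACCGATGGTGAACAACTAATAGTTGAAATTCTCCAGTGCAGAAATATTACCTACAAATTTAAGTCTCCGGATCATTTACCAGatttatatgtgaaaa
Each of the printed exons is coding from end to end and has a length divisible by 3.

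Values are FPKM, read fragments scaled to transcript length and to the library total, so levels of genes within a library are already per length, and the depth of the libraries is unknown. The deletion was checked first: Auts2 stood at 29.8, 35.2, 30.4 and 34.5 FPKM in cKO 1 to 4, against 87.7, 92.2, 55.9 and 60.2 FPKM in wild type 1 to 4, and the groups did not overlap (log2 -1.13, SE 0.14, adjusted p = 0.0237, limma). Under several alternative fits, given at the end, no gene was called lower in cKO, Auts2 included. The tissue label was set beside 12 telencephalic and cortical neuron markers, whose summed level ran from 1663 to 1738 FPKM in cKO and from 1691 to 1770 FPKM in wild type libraries. The list also holds general neuronal genes, so this sum cannot tell cortex from other neural tissue. Among the 12 markers Tubb3, a tubulin gene of neurons, was at 0 in each of the 8 libraries of frontal cortex, and this can be a failed estimate. Of the 9 marker lists, none had a member called between cKO and wild type, though at an unadjusted p under 0.05 in limma 4 of the 11 tested neuron markers and 2 of the 8 interneuron markers passed, against 7.91% of all genes tested. So did 2 of 10 radial glia and progenitor markers, 1 of 8 striatal, 1 of 7 oligodendrocyte lineage and 1 of 5 red blood cell markers. The astrocyte, microglia and endothelial lists had 0. Library cKO 1 stood apart: its correlation with the other 7 libraries ran from 0.980 to 0.986, and its median log2 difference from the mean of the other 7 ran from 0.16 for genes under 2 kb to -0.41 for the 162 genes with transcripts of 10 kb or more. The other 7 libraries lay between 0.01 and 0.15 for those longest genes. The 8 interneuron markers summed to between 195 and 324 FPKM in cKO, highest in cKO 1, against 160 to 201.5 FPKM in wild type, and none of the 8 was called. The part of the length trend and of interneuron RNA in the values of cKO 1 was not tested. In bulk tissue, fewer cells of a type and less RNA per cell cannot be told apart.

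None of the 10 genes was called different between Auts2 cKO and wild type frontal cortex. A gene was called when its Benjamini-Hochberg adjusted p in limma, over the 12786 genes tested on log2(FPKM + 1), was under 0.05. Of those, 3 genes or 0.0235% were called in either direction, so a count of 0 of 10 is near the background. No member reached an unadjusted p under 0.05 either, a threshold that 1011 of the 12786 genes, or 7.91%, passed. The log2 differences of the members ran from -0.18 for Rims2 to 0.17 for Syt1, with a median of -0.05 against 0.00 over all genes tested. The 95% intervals of all 10 lay between -0.47 and 0.49, so larger changes than these were outside the interval of every member. Groups without overlap were found for 4.41% of all genes tested and for 0 of the 10.

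Both giant scaffold genes were lowest in cKO 1. Pclo stood at 10.1, 18.5, 21.8 and 18.4 FPKM in cKO 1 to 4, against 15.2, 15.0, 19.5 and 20.1 FPKM in wild type 1 to 4. Its cKO 1 value was the lowest of the 8 and the other 3 cKO values lay within or above the wild type range (log2 -0.06, SE 0.19, adjusted p = 0.930). Bsn stood at 17.4, 25.4, 24.2 and 24.4 FPKM in cKO, against 22.1, 22.8, 25.5 and 23.4 FPKM in wild type, and again cKO 1 alone lay below the wild type values (log2 -0.05, SE 0.11, adjusted p = 0.888). Without cKO 1 the log2 differences were 0.16 for Pclo and 0.07 for Bsn, neither called.

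Among the RIM genes and Unc13a, cKO 1 was the lowest cKO library each time. Rims1 measured 25.6, 35.5, 36.5 and 35.5 FPKM in cKO, against 26.7, 24.6, 34.5 and 34.0 FPKM in wild type, where library 2 was the lowest of the 8 (log2 0.15, SE 0.13, adjusted p = 0.719). Its difference was 0.27 without cKO 1 and 0.06 without wild type 2, neither called. Rims2, the least abundant member, measured 5.85, 8.16, 8.73 and 8.25 FPKM in cKO and 8.92, 8.98, 9.20 and 8.15 FPKM in wild type. All 4 cKO values were below the 3 highest wild type values, and its log2 difference of -0.18 (SE 0.11, adjusted p = 0.648) was the most negative of the 10. Without cKO 1 it was -0.06 (adjusted p = 0.779). The vesicle-priming gene Unc13a had 22.3, 37.4, 32.6 and 35.9 FPKM in cKO and 29.9, 33.8, 35.3 and 37.3 FPKM in wild type (log2 -0.11, SE 0.14, adjusted p = 0.801). Apart from cKO 1, the values of the groups were interleaved.

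Erc1 had 1 low library, with 22.2 FPKM in cKO 1 beside 38.7, 39.2 and 39.4 FPKM in cKO 2 to 4, against 30.9, 35.0, 37.2 and 36.8 FPKM in wild type. The other 3 cKO libraries were all above the highest wild type library, and the difference was -0.04 with cKO 1 and 0.16 without it (SE 0.07, adjusted p = 0.580). Erc2, its paralog, stood at 58.1, 63.4, 71.6 and 73.1 FPKM in cKO, against 73.1, 70.0, 62.4 and 62.7 FPKM in wild type, so that the groups overlapped over nearly their whole range. Ppfia2 had the smallest SE of the members, with 35.0, 35.7, 40.2 and 33.1 FPKM in cKO and 38.8, 38.5, 34.4 and 37.8 FPKM in wild type, and cKO 1 was not low (log2 -0.05, SE 0.07, adjusted p = 0.814).

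The vesicle genes were not called either. Syn1 stood at 34.2, 53.5, 49.5 and 51.3 FPKM in cKO, against 43.9, 51.2, 53.0 and 51.0 FPKM in wild type, with cKO 1 and wild type 1 the lowest of their groups. Syt1 was the most abundant member on the FPKM scale, at 64.3, 86.1, 93.8 and 91.8 FPKM in cKO, against 59.5, 63.2, 85.1 and 92.1 FPKM in wild type. Wild type 1 and 2 were its lowest libraries, and the log2 difference of 0.17 (SE 0.15, adjusted p = 0.714) was the most positive among the members. It was 0.29 without cKO 1 and 0.07 without wild type 1, neither called. In all, cKO 1 was the lowest of the 8 libraries for 7 of the 10 genes, and the summed level of the 10 was 295 FPKM in cKO 1, between 402 and 418 FPKM in the other 3 cKO libraries, and between 349 and 403 FPKM in wild type. Without cKO 1 the median log2 difference of the members was 0.06 in place of -0.05, and 8 rather than 2 of them were positive. The wild type group was uneven as well: by correlation over all genes tested, libraries 1 and 2 were closest to each other, as were 3 and 4. Pclo, Bsn, Rims1, Unc13a, Erc1 and Syt1 were lower, and Erc2, Ppfia2 and Auts2 higher, in wild type 1 and 2 than in 3 and 4. The cause was not tested.

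**Figure D1:**
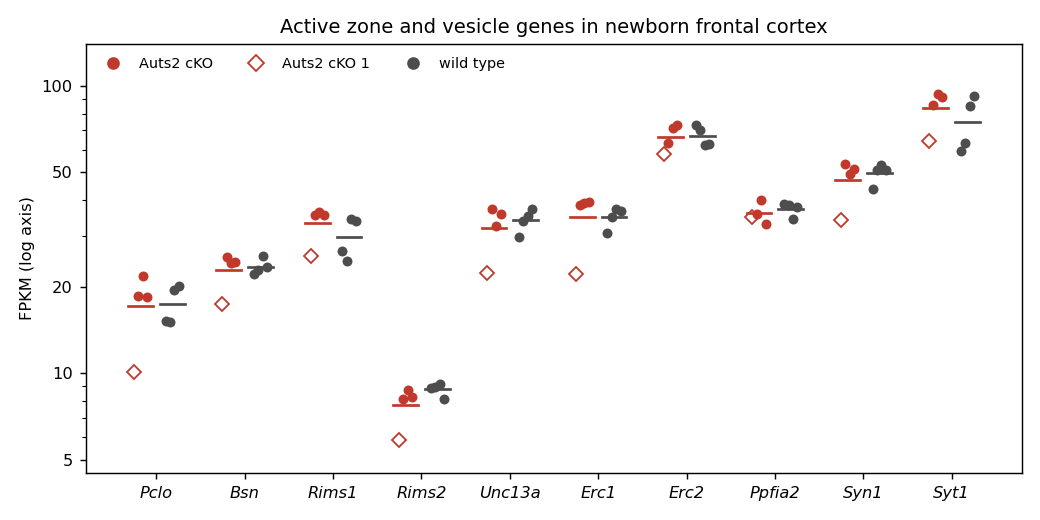
FPKM of the 10 genes on a log axis in each frontal cortex library, Auts2 cKO (red, with cKO 1 as an open diamond) left of wild type (grey), and bars at group means. The open diamond of cKO 1 is the lowest of the 8 points for 7 genes, while the other points of both groups overlap or lie close together.

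The order of levels in cKO libraries by mean was Syt1 (84.0 ± 13.6), Erc2 (66.5 ± 7.07), Syn1 (47.1 ± 8.79), Ppfia2 (36.0 ± 3.01), Erc1 (34.9 ± 8.45), Rims1 (33.3 ± 5.13), Unc13a (32.1 ± 6.80), Bsn (22.9 ± 3.67), Pclo (17.2 ± 4.995) and Rims2 (7.75 ± 1.29 FPKM, SD, n = 4). In wild type libraries the means were Syt1 75.0 ± 16.0, Erc2 67.1 ± 5.38, Syn1 49.8 ± 4.01, Ppfia2 37.4 ± 2.04, Erc1 35.0 ± 2.89, Unc13a 34.1 ± 3.15, Rims1 29.9 ± 5.03, Bsn 23.5 ± 1.46, Pclo 17.5 ± 2.69 and Rims2 8.81 ± 0.46 FPKM. The ranges of neighbours in this order overlapped in both groups for Syt1 and Erc2 and for all steps from Ppfia2 to Rims1 and Unc13a. Rims2 lay below every other member without overlap in both groups.

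Between transcripts, the Bsn forms parted in cKO 1. Bsn-201, the 15938-base form, stood at 7.76, 16.9, 16.2 and 16.9 FPKM in cKO 1 to 4, against 16.3, 16.1, 16.5 and 15.8 FPKM in wild type 1 to 4. Bsn-202, a 7496-base form that holds the 3′ part of the gene, was at 9.68, 8.57, 8.03 and 7.47 FPKM in cKO and 5.87, 6.73, 8.999 and 7.61 FPKM in wild type. In cKO 1 the long form was thus the lowest and the 3′ form the highest of the 8 libraries. Pclo-202, the shorter of the long piccolo forms, was listed at 0 in cKO 1 and at 4.72, 5.93 and 5.62 FPKM in cKO 2 to 4, against 5.04, 5.52, 4.28 and 4.15 FPKM in wild type. Pclo-204, a 6738-base form that starts within the gene and ends near the end of Pclo-202, was the largest Pclo row on average, with 34.6% to 63.6% of the gene's FPKM in cKO and 34.6% to 43.8% in wild type libraries, and its highest share was in cKO 1. Isoform estimates share reads, so they are described without a test.

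In the AUTS2 pull-down 7 of the 10 genes were higher than in the IgG pull-down and none was lower. Unc13a, Pclo, Bsn, Erc1, Rims2, Rims1 and Syt1 passed the test, while Erc2, Ppfia2 and Syn1 did not. Over all 14570 genes tested, 23.4% were called in either direction, 13.7% higher and 9.69% lower. Values of the groups did not overlap, with RIP higher, for 9 of the 10 genes, against 34.3% of all genes tested. The median log2 difference of the members was 0.55, against 0.02 over all genes. With only 2 libraries in each group these calls rest on little replication: leaving out IgG A left 0 genes called anywhere in the table, and leaving out RIP A, RIP B or IgG B left 2, 3 or 4 of the members.

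Unc13a had the largest difference of the members. It stood at 119 and 117 FPKM in RIP A and B, against 47.8 and 41.7 FPKM in IgG A and B, a ratio of means of 2.63 (log2 1.38, SE 0.11, adjusted p = 0.00248, limma). The pull-down values were close together and far above both IgG values. Pclo measured 219 and 216 FPKM in RIP and 114 and 113 FPKM in IgG (log2 0.93, SE 0.09, adjusted p = 0.00306). Bsn measured 104 and 93.6 FPKM in RIP and 55.9 and 59.5 FPKM in IgG (log2 0.76, SE 0.11, adjusted p = 0.0069). Both giant scaffold genes were thus higher in each RIP library than in either IgG library.

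Among the RIM and ELKS genes, Erc1 and Rims2 differed most clearly. Erc1 stood at 66.4 and 67.1 FPKM in RIP, against 42.3 and 39.4 FPKM in IgG (log2 0.70, SE 0.11, adjusted p = 0.00831). Rims2 was at 42.9 and 46.4 FPKM in RIP, against 28.5 and 30.0 FPKM in IgG (log2 0.59, SE 0.12, adjusted p = 0.0181). Rims1 was less even, at 89.7 and 81.0 FPKM in RIP and 66.6 and 53.1 FPKM in IgG, and stood just past the threshold (log2 0.51, SE 0.14, adjusted p = 0.0453). Erc2 missed it with 116 and 133 FPKM in RIP and 84.6 and 106 FPKM in IgG (log2 0.40, 95% interval 0.06 to 0.74, adjusted p = 0.0916). With the trio as a paired block Erc2 passed as well, and the count was 8 of 10, beside 2023 called higher of all 14570 genes tested.

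Ppfia2 showed little spread and a small difference, with 40.2 and 40.7 FPKM in RIP and 32.4 and 32.9 FPKM in IgG (log2 0.30, 95% interval 0.03 to 0.57, adjusted p = 0.105). Of the vesicle genes, Syt1 was at 262 and 241 FPKM in RIP, against 197 and 158 FPKM in IgG (log2 0.51, SE 0.13, adjusted p = 0.0379). Syn1 was at 31.1 and 23.1 FPKM in RIP, against 34.4 and 23.0 FPKM in IgG (log2 -0.07, 95% interval -0.63 to 0.49, adjusted p = 0.859). Library A was higher than B for Syn1 in both groups, and the spread between them was wider than the difference between the groups.

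Against the 10% input, 9 of the 10 genes were higher in the pull-down and none was lower, Syn1 being the one not called. Over the 14458 genes tested, 35.9% were called in either direction, 19.3% higher and 16.6% lower. The members' values did not overlap, with RIP higher, for 9 of 10, against 35.9% of all genes tested. Their median log2 difference was 0.80, against -0.02 over all genes. The RIP libraries are the same as in the comparison with IgG, scaled in another table by a factor of 1.018 for A and 1.015 for B, so the comparisons are not independent.

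Unc13a, Pclo and Bsn had the largest differences here too. Unc13a stood at 121 and 119 FPKM in RIP, against 28.5 and 37.0 FPKM in input, a ratio of means of 3.66 (log2 1.85, SE 0.14, adjusted p = 0.000966). Pclo was at 223 and 219 FPKM in RIP, against 72.3 and 70.3 FPKM in input (log2 1.62, SE 0.09, adjusted p = 0.000677). Bsn was at 106 and 95.003 FPKM in RIP, against 34.0 and 35.3 FPKM in input (log2 1.51, SE 0.11, adjusted p = 0.000818). For these genes each RIP library lay far above both input libraries. The IgG pull-down, scaled in the other table, also stood above input for them. Its means were 44.8 FPKM for Unc13a, 113 FPKM for Pclo and 57.7 FPKM for Bsn, against 32.8, 71.3 and 34.7 FPKM in input. The part of the differences from input that IgG shares was not tested.

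The remaining members differed less. Rims2 was at 43.7 and 47.1 FPKM in RIP, against 24.4 and 25.1 FPKM in input (log2 0.85, adjusted p = 0.00385), and Syt1 at 267 and 244 FPKM in RIP, against 155 and 133 FPKM in input (log2 0.83, adjusted p = 0.00343). Ppfia2, not called against IgG, passed here with 40.9 and 41.3 FPKM in RIP and 23.1 and 23.9 FPKM in input (log2 0.78, adjusted p = 0.00482). Its level in IgG was 32.7 ± 0.34 FPKM (SD, n = 2) in the other table. Liprin-alpha2 RNA was thus higher in RIP than in input while the difference from IgG did not pass.

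Rims1 was at 91.3 and 82.3 FPKM in RIP, against 63.2 and 50.01 FPKM in input (log2 0.62, adjusted p = 0.0202). Erc1 had 67.6 and 68.2 FPKM in RIP, against 51.4 and 46.3 FPKM in input (log2 0.47, adjusted p = 0.0194), and Erc2 had 119 and 135 FPKM in RIP, against 91.2 and 96.1 FPKM in input (log2 0.43, adjusted p = 0.0244). Syn1 stood at 31.6 and 23.5 FPKM in RIP and 30.1 and 26.8 FPKM in input, with the input values inside the range of the RIP values (log2 -0.06, 95% interval -0.49 to 0.37, adjusted p = 0.816). Leaving out RIP A, RIP B, input A or input B left 5, 4, 8 or 6 members called.

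**Figure D2:**
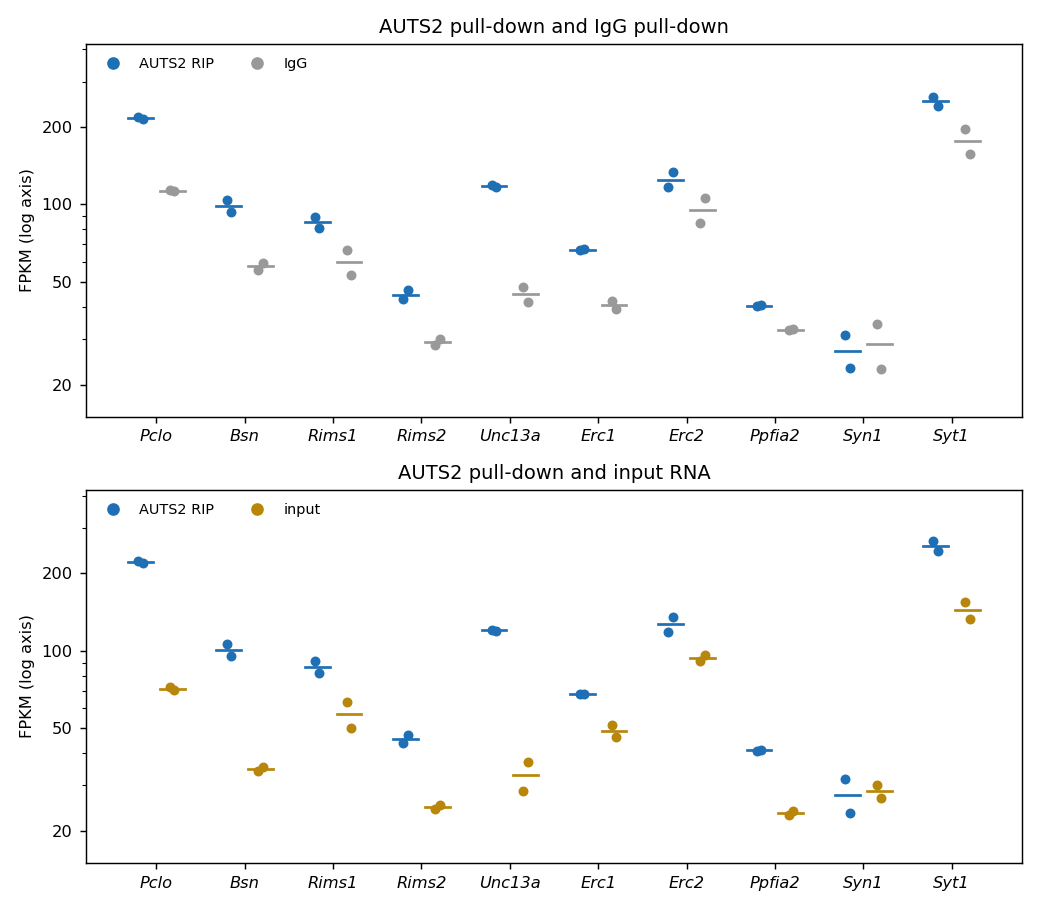
FPKM of the 10 genes on a log axis in each library, AUTS2 RIP (blue) left of IgG (grey, upper panel) and of input (ochre, lower panel), with bars at the means of 2 libraries. RIP points lie above both control points for every gene except Syn1, with the widest gaps for Pclo, Bsn and Unc13a.

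Transcript length moved with these differences across the whole table. The share of genes called higher against IgG was 6.48% under 2 kb, 14.6% from 2 to 4 kb, 22.1% from 4 to 6 kb, 31.8% from 6 to 10 kb and 45.0% at 10 kb or more. Against input these shares were 8.97%, 21.4%, 31.0%, 42.8% and 52.6%. The members are long: the median of their FPKM-weighted transcript lengths was 4.98 kb, against 2.40 kb over all genes in the table with IgG. Pclo and Bsn fall in the class of 10 kb or more, where the median log2 difference of all genes was 0.54 against IgG and 0.68 against input. Unc13a falls in the class of 6 to 10 kb, with class medians of 0.28 and 0.44, and Syn1 in that of 2 to 4 kb, with 0.07 and 0.09.

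With smooth trends of length and GC content removed from each library, the genes parted. In the comparison with IgG, FPKM-weighted GC content was 59.5% for Bsn, 57.8% for Syn1 and 56.1% for Unc13a. It lay between 43.7% and 52.9% for the other members, with Pclo at 47.2%. Unc13a kept log2 differences of 0.93 against IgG (adjusted p = 0.00646) and 1.15 against input (adjusted p = 0.00379). Pclo kept 0.43 against IgG (adjusted p = 0.025) and 0.93 against input (adjusted p = 0.00201). Bsn, by contrast, stood at -0.01 against IgG (adjusted p = 0.947) and 0.33 against input (adjusted p = 0.0525), and was called in neither. Beside Unc13a and Pclo, Rims2 (log2 0.46, adjusted p = 0.041) and Erc1 (0.55, adjusted p = 0.021) remained called against IgG, 4 of 10 in all, where 10.7% of all genes tested were called higher and 7.47% lower. Syt1 lost its call with a difference of 0.51 as before (adjusted p = 0.0537), while Rims1 was lower than before at 0.31 (adjusted p = 0.189).

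Against input the genes called higher after this step were 6 of 10, namely Pclo, Unc13a, Rims2, Erc2, Ppfia2 and Syt1, where 15.3% of all genes tested were called higher and 12.8% lower. Ppfia2 (0.84) and Syt1 (0.83) were at nearly their earlier values, and Syn1 was called lower, at -0.56 (adjusted p = 0.0459). Length and GC trends were removed together, and the part of each in the values without this step was not tested further.

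**Figure D3:**
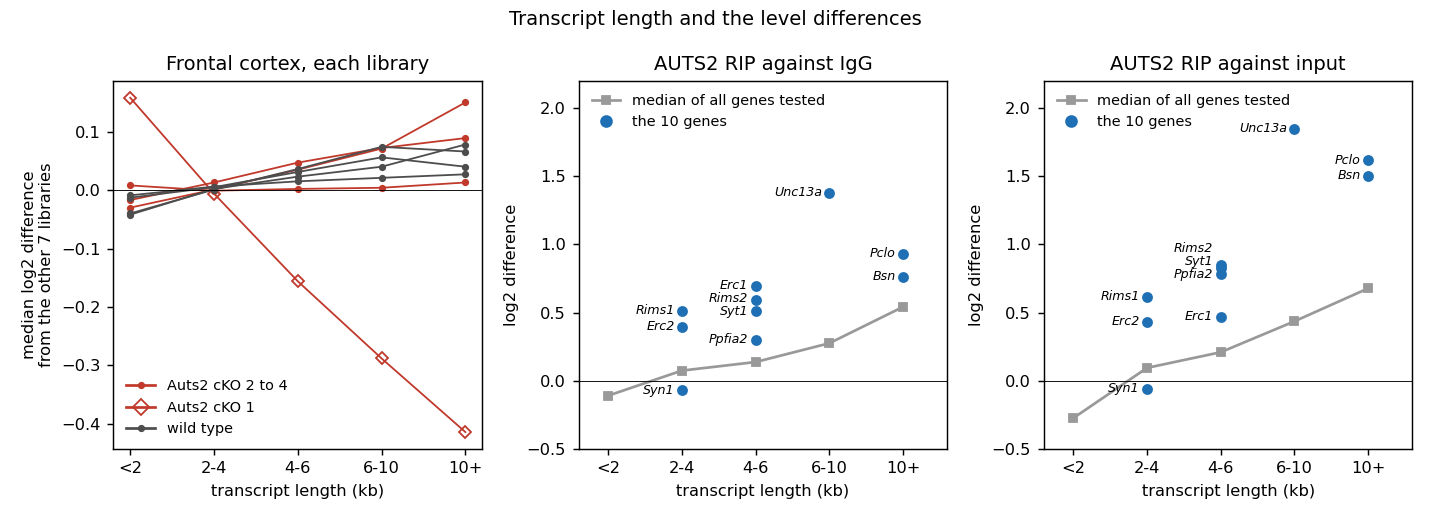
Left: median log2 difference of each frontal cortex library from the mean of the other 7, by transcript length class in kb, Auts2 cKO in red and wild type in grey; cKO 1 runs from 0.16 to -0.41 while the others lie between -0.04 and 0.15. Middle and right: log2 difference of AUTS2 RIP against IgG and against input by length class, with the median of all genes tested (grey squares) rising with length and the 10 genes (blue points) above it except Syn1.

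**Figure D4:**
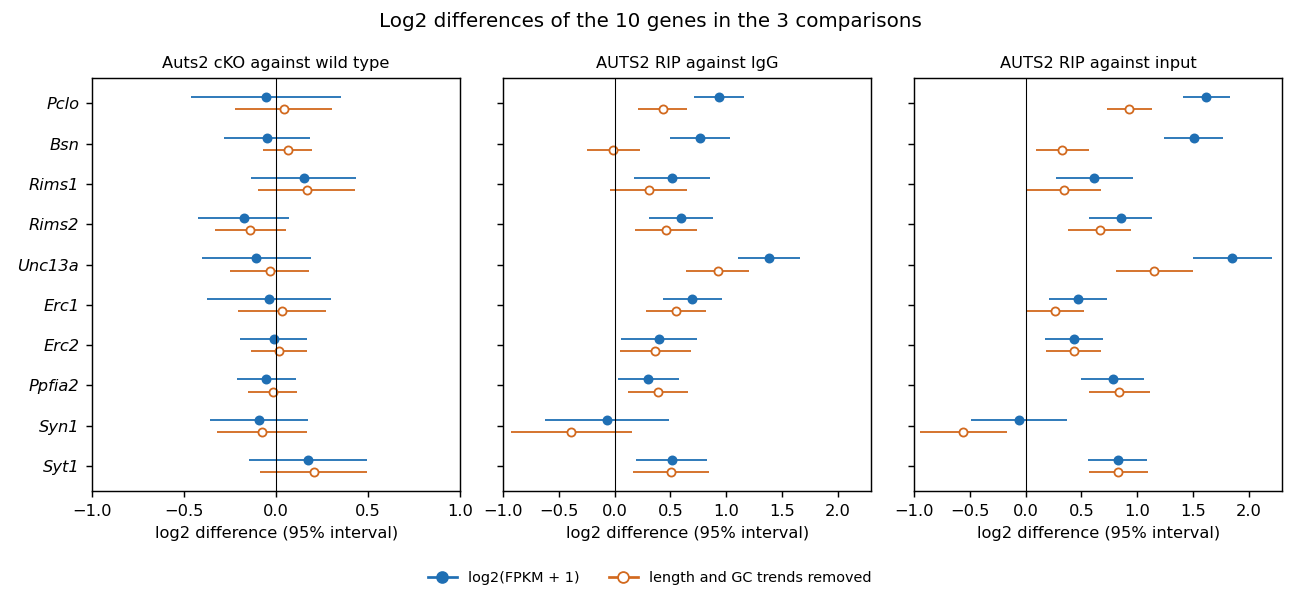
Log2 differences of the 10 genes with 95% intervals in the 3 comparisons, on log2(FPKM + 1) (filled blue) and with length and GC trends removed (open orange). In the cKO comparison every interval crosses 0. In both RIP comparisons the intervals of Unc13a, Pclo, Rims2, Erc1, Erc2, Ppfia2 and Syt1, not adjusted for the number of genes, lie above 0 either way. Bsn lies at 0.76 or, with trends removed, at -0.01 against IgG.

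The transcript rows show which forms carried the differences. Pclo-202, the 16846-base form that lacks the last exons of Pclo-201, was the main Pclo row in the pull-down tables, at 151 and 157 FPKM in RIP, against 79.9 and 81.1 FPKM in IgG. In the table with input it was at 154 and 159 FPKM in RIP, against 42.7 and 43.7 FPKM in input. Pclo-201, whose product carries a second C2 domain, was at 57.5 and 46.7 FPKM in RIP, against 25.3 and 30.8 FPKM in IgG, so both forms were higher in RIP. The shares of Pclo-202 in the gene were 68.9% and 72.7% in RIP, against 70.3% and 71.7% in IgG, and 59.1% and 62.1% in input.

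Bsn-201 carried nearly all Bsn signal in these tables, at 95.2 and 87.8 FPKM in RIP, against 50.7 and 53.3 FPKM in IgG, while the 3′ form Bsn-202 overlapped at 8.76 and 5.81 FPKM in RIP and 5.21 and 6.20 FPKM in IgG. Where IgG and input stand beside 1 pair of RIP values in what follows, the RIP values are those of the table with IgG, which differ from those of the table with input only by the small factors above. Unc13a-201 was at 67.4 and 57.5 FPKM in RIP, against 26.8 and 25.4 FPKM in IgG and 20.2 and 17.8 FPKM in input. Unc13a-208, with the 57-base exon printed above, was at 22.4 and 25.7 FPKM in RIP, against 8.04 and 9.78 FPKM in IgG and 5.05 and 6.91 FPKM in input. Both Unc13a forms were therefore higher in each RIP library than in each control library.

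Unc13a-207, a short row annotated as a retained intron and named after its values were seen, was at 16.5 and 15.1 FPKM in RIP, against 1.39 and 2.501 FPKM in IgG and 1.65 and 5.24 FPKM in input. On protein-coding transcripts alone, Unc13a remained called in both comparisons, and 9 of 10 members were called higher against IgG and against input, where 18.1% of all genes tested in that way were called higher against IgG and 22.0% against input.

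For Rims2, the difference between RIP and IgG lay mostly in 1 form, which was not tested. Rims2-201 was at 31.7 and 32.1 FPKM in RIP, against 17.6 and 20.9 FPKM in IgG and 20.2 and 22.4 FPKM in input. Rims2-202, which holds exons 2 and 3 shown above and lacks exons 17 and 18 of the other form, was at 11.2 and 14.3 FPKM in RIP, against 10.9 and 9.15 FPKM in IgG and 4.12 and 2.72 FPKM in input. Its share of Rims2 was 26.1% and 30.8% in RIP, against 38.4% and 30.4% in IgG, and 16.9% and 10.8% in input. In frontal cortex its share ran from 30.2% to 44.7% in cKO and from 28.9% to 50.6% in wild type libraries.

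For the ELKS genes, rows not annotated as protein-coding led in the pull-down tables. Erc2-211, a 1216-base processed transcript, was at 61.4 ± 5.66 FPKM in RIP, against 44.5 ± 7.59 FPKM in IgG (SD, n = 2 each), and Erc2-205, a coding form, was at 29.8 ± 3.47 FPKM in RIP, against 20.3 ± 4.34 FPKM in IgG. Erc1-206, annotated for nonsense-mediated decay, was at 22.9 ± 1.88 FPKM in RIP, against 14.7 ± 2.90 FPKM in IgG. Erc1-203, the highest coding row of Erc1 beside IgG, was not higher, at 10.45 ± 2.26 FPKM in RIP and 12.3 ± 5.94 FPKM in IgG. The coding row Erc1-201 was at 6.15 ± 1.29 FPKM in RIP, against 1.78 ± 2.47 FPKM in IgG. Erc1-202 and Erc1-207 were higher on average as well, and Erc1-210 was lower. On protein-coding transcripts alone, Erc1 was called higher against IgG (log2 0.57, adjusted p = 0.0265, limma). Protein-coding rows made up 37.4% to 40.6% of Erc1 in RIP, against 40.0% to 44.3% in IgG, and 43.4% to 46.8% of Erc2 in RIP, against 41.8% to 43.4% in IgG. In input they made up 27.9% to 44.3% of Erc1 and 31.9% to 41.9% of Erc2, so low shares were not particular to the pull-downs. In frontal cortex these shares were higher, from 59.9% to 73.4% of Erc1 and from 65.8% to 72.2% of Erc2 in cKO libraries, and from 62.7% to 64.9% of Erc1 and from 66.0% to 73.5% of Erc2 in wild type libraries. The frontal cortex libraries were made from polyA RNA and the RIP set from total RNA, and the part of this in the shares was not tested.

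Rims1 was led by short rows. Rims1-202, a 2411-base coding row, was at 30.6 ± 2.78 FPKM in RIP, against 18.3 ± 1.93 FPKM in IgG, and Rims1-209 at 17.1 ± 3.39 FPKM in RIP, against 12.1 ± 4.40 FPKM in IgG. Ppfia2-201, the main liprin-alpha2 form, was at 36.6 ± 0.04 FPKM in RIP, against 24.2 ± 0.43 FPKM in IgG, while the noncoding Ppfia2-204 was at 1.61 ± 0.09 FPKM in RIP and 5.21 ± 0.19 FPKM in IgG. The gene sum thus joins a coding form that was higher and a noncoding row that was lower, and on protein-coding transcripts alone Ppfia2 passed the test against IgG. Syt1-201 made up 78.5% to 88.0% of Syt1 in RIP, against 80.6% to 90.7% in IgG. Syt1-202 was at 22.3 ± 10.5 FPKM in RIP, against 16.2 ± 8.12 FPKM in IgG. Syn1-202 was at 18.8 ± 9.40 FPKM in RIP, against 19.0 ± 6.97 FPKM in IgG, and Syn1-201 at 8.33 ± 3.77 FPKM in RIP, against 9.74 ± 1.05 FPKM in IgG, so neither synapsin form stood apart from its spread.

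**Figure D5:**
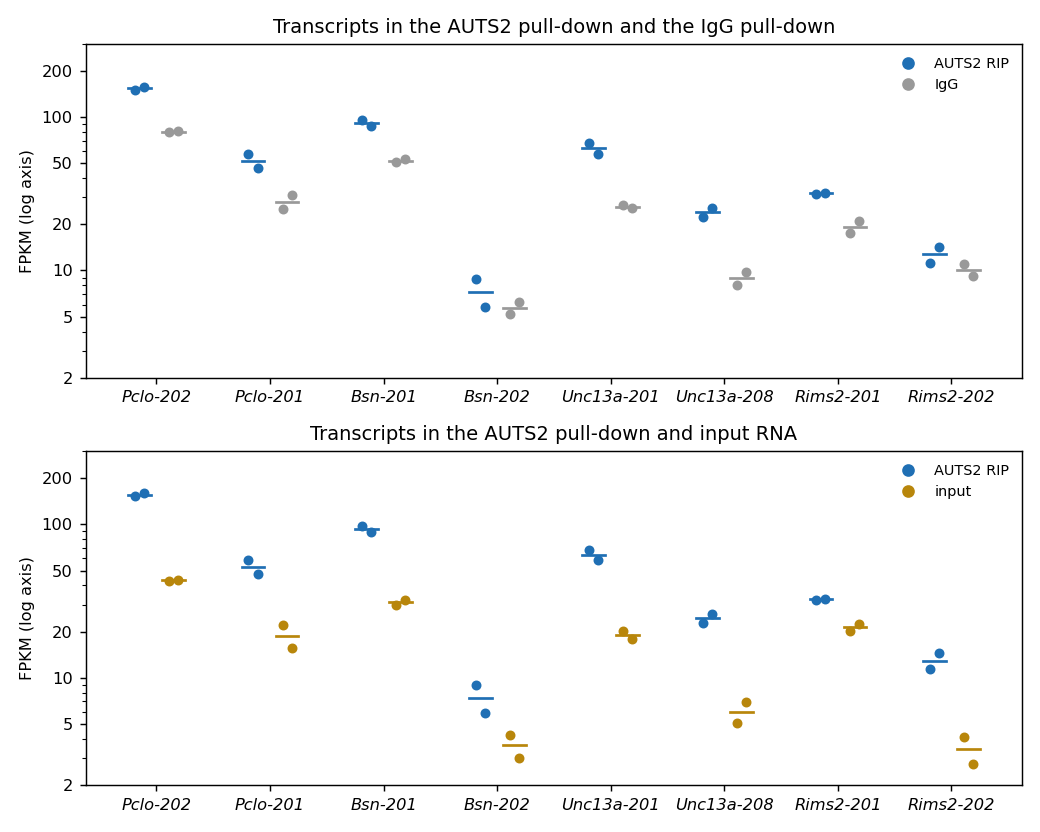
FPKM of 8 coding transcripts on a log axis in each library, AUTS2 RIP (blue) left of IgG (grey, upper panel) and of input (ochre, lower panel), with bars at the means of 2 libraries. The RIP points of both Pclo and both Unc13a forms lie above the control points in both panels, while Bsn-202 overlaps IgG and Rims2-202 stands clear of input but close to IgG.

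The rest of the presynaptic machinery was read from 4 further lists. Among 27 other active zone and priming genes, 10 were higher and 1 lower in RIP than in IgG (median log2 0.46), and 14 were higher and 3 lower than in input (median 0.71). Over all genes tested 13.7% were higher and 9.69% lower than in IgG, and 19.3% were higher and 16.6% lower than in input, so the 3 lower genes of 27 are a smaller share than over all genes. Tspoap1, which encodes RIM-binding protein 1, was at 125 ± 10.1 FPKM in RIP, against 47.7 ± 6.88 FPKM in IgG (log2 1.37, adjusted p = 0.00306), a difference close to that of Unc13a. The liprin genes Ppfia4 (log2 1.09, adjusted p = 0.00368) and Ppfia3 (1.06, adjusted p = 0.00551) were also higher. Lin7c, whose product works with CASK and Mint proteins, was lower, at 8.28 ± 3.68 FPKM in RIP and 30.4 ± 0.56 FPKM in IgG (log2 -1.82, adjusted p = 0.0079). Against input the largest differences were 2.16 for Tspoap1, 1.69 for Ppfia3 and 1.39 for Ppfia4, and Lin7c (-2.02), Lin7a (-1.27) and Rab3a (-0.56), which encodes the vesicle GTPase that RIM binds, were lower.

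Most called synaptic vesicle and SNARE genes were lower in RIP. Of 24 tested, 1 was higher and 8 were lower in RIP than in IgG (median log2 -0.36), and 2 were higher and 10 lower than in input (median -0.38), where 9.69% and 16.6% of all genes tested were lower. Vamp2, the vesicle SNARE, was at 31.2 ± 0.71 FPKM in RIP, against 74.9 ± 5.06 FPKM in IgG (log2 -1.23, adjusted p = 0.00287). Cplx2, which encodes a complexin that binds the SNARE bundle, was at 59.6 ± 0.28 FPKM in RIP, against 135 ± 13.9 FPKM in IgG (log2 -1.16, adjusted p = 0.00301). Synpr, the vesicle protein synaptoporin, was lower too (-1.17, adjusted p = 0.0413), and Nsf, the ATPase that takes SNARE bundles apart, was the 1 that was higher (0.73, adjusted p = 0.0112). Against input Stx1a (1.06) and Nsf (0.64) were higher, and Synpr (-1.35), Vamp2 (-1.03) and Scamp1 (-0.97) were the most negative called genes of the list.

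Of the 14 endocytosis genes, 4 were higher and 1 lower in RIP than in IgG, and 7 were higher and 1 lower than in input. Of all genes tested, 13.7% were higher and 9.69% lower than in IgG, and 19.3% were higher and 16.6% lower than in input. In both comparisons 1 lower gene of 14 is a smaller share than over all genes. Synj1, the phosphoinositide phosphatase synaptojanin, was at 99.2 ± 2.05 FPKM in RIP, against 39.3 ± 7.37 FPKM in IgG (log2 1.32, adjusted p = 0.00374). Itsn2, an endocytic scaffold (1.12, adjusted p = 0.00397), and Dnm1, the fission GTPase dynamin 1 (0.69, adjusted p = 0.00699), were higher, and Picalm, a clathrin adaptor, was lower (-0.53, adjusted p = 0.0257). Against input the order was Itsn2 (1.31), Dnm1 (1.20) and Synj1 (1.09), with Picalm at -0.62. Among the 15 other synapsin and synaptotagmin genes none was higher and 1, Syt4, was lower, at -0.48 against IgG (adjusted p = 0.0404) and -0.76 against input (adjusted p = 0.00613). That lower share, too, is smaller than over all genes.

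These lists also differ in length, with medians of 4.04 kb for the other active zone and priming genes, 2.82 kb for the vesicle and SNARE genes, 3.35 kb for the endocytosis genes and 3.63 kb for the other synapsins and synaptotagmins. With length and GC trends removed, 6 of the 27 other active zone genes were higher and 2 lower than in IgG (median 0.24), and 1 of the 24 vesicle and SNARE genes was higher and 9 lower (median -0.39). Against input the counts were 12 higher and 2 lower for the other active zone genes, and 1 higher and 11 lower for the vesicle and SNARE genes. Of the 14 endocytosis genes 3 were higher than in IgG and 6 higher than in input, with 0 lower, and of the 15 other synapsins and synaptotagmins 0 were called. After this step 10.7% of all genes tested were higher and 7.47% lower than in IgG, and 15.3% were higher and 12.8% lower than in input. The 2 lower genes of the 27 other active zone genes are thus near or below the share over all genes.

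Some markers of other cells were called in the pull-down too. Over all genes tested 13.7% were higher and 9.69% lower than in IgG, and 19.3% were higher and 16.6% lower than in input. Against IgG the counts in these short lists were near those shares. Of the 7 oligodendrocyte lineage markers, 1 was called higher against IgG (median log2 0.37), and 4 were called higher and 1 lower against input (median 0.65). They summed to 90.2 and 97.3 FPKM in RIP, against 68.7 and 73.8 FPKM in IgG, and to 91.5 and 99.05 FPKM in RIP, against 60.6 and 69.1 FPKM in input. The 10 radial glia and progenitor markers summed to 202 and 232 FPKM in RIP, against 150 to 161 FPKM in IgG, with 2 called higher there and 2 against input, and the 8 microglia markers summed to 13.0 and 14.3 FPKM in RIP, against 17.7 to 22.1 FPKM in IgG, with none called. The 12 neuron markers, 1 called higher and 1 lower, summed to 1205 and 1222 FPKM in RIP, against 1143 to 1188 FPKM in IgG, and against input 4 were called higher and 3 lower. Of the 7 astrocyte markers tested, 1 was called lower against IgG and 2 against input. Against input the 6 red blood cell markers summed to 19.2 and 39.3 FPKM in RIP and to 67.0 and 77.3 FPKM in input, with 2 called lower. No marker was at 0 in all RIP and control libraries, and the part of cell markers in the members' values was not tested.

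In frontal cortex none of the 4 further lists held a called gene between cKO and wild type. At an unadjusted p under 0.05 in limma, 4 of the 27 other active zone and priming genes, 3 of the 24 vesicle and SNARE genes, and 0 genes of the remaining lists passed. That threshold was passed by 7.91% of all genes tested. The median log2 differences of the lists were -0.01 for the other active zone and priming genes, 0.00 for the other synapsins and synaptotagmins, 0.11 for the vesicle and SNARE genes and 0.06 for the endocytosis genes. The smallest p-values in these lists belonged to Doc2b and Cask, to Syt17 and Syt5, to Snap47 and Slc17a6, and to Eps15 and Dnm1. Doc2b, a calcium-binding vesicle protein gene, was at 8.87 ± 0.97 FPKM in cKO and 6.98 ± 1.31 FPKM in wild type (SD, n = 4 each, log2 0.32, adjusted p = 0.628). Cask, a scaffold kinase gene, was at 47.1 ± 6.59 FPKM in cKO and 56.7 ± 7.21 FPKM in wild type (log2 -0.27, adjusted p = 0.628). Snap47 stood at 132 ± 5.33 FPKM in cKO and 118 ± 6.05 FPKM in wild type (log2 0.16, adjusted p = 0.628). The other 5 had log2 differences between 0.10 and 0.29 and adjusted p of at least 0.628.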

How the data were processed

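The deposited tables hold FPKM per transcript for 14 libraries. Per the submitters' processing notes, the authors used STAR 2.5, SAMtools and Cuffdiff 2.2.1 with GRCm38.p4 (mm10). The depth is unknown, so no counting error is given, and each table is scaled by itself. Each table has 128533 rows, of which 25 are not transcripts and hold 0. Of 128508 transcripts, 127975 were matched by ID to GENCODE vM21, which carried at least 99.475% of the FPKM in every library, and were summed into 51626 symbols. Library sums ran from 282029 to 340979 FPKM.

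Within each table, limma 3.58.1 (R 4.3.3) was fitted on log2(FPKM + 1), for genes whose FPKM averaged 1 or more over the libraries, with trend and robust settings, two-sided, and p-values were Benjamini-Hochberg adjusted over all genes tested with a threshold of 0.05. Fold changes are on that log scale, which understates those of low genes. The design text gives 4 and 2 biological replicates per group. RIP, IgG and input libraries of 1 letter come from the same tissue per the design text, and their deviations from the group means correlated at 0.0088 (IgG) and 0.012 (input). The column of cKO 4 was matched to its label by library number only.

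The members and lists were chosen with earlier results of these data known. Named beside the members are, in each of 4 other presynaptic lists, up to 3 called genes with the largest differences in each direction, or with none called the 2 with the smallest p, and each member's 2 highest transcripts in a table. Alternatives were the pseudocount, filters, median-ratio and quantile scaling, limma without trend and robust settings, a replicate block, protein-coding transcripts only, removal of length and GC trends (loess, span 0.4), Xist state as a covariate, and leaving out each library. The fit was tested on simulated data. Python 3.11.15, pandas 2.3.3, numpy 2.4.6 and matplotlib 3.10.9 were used.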

Additional observations from a re-analysis of the deposited data

Results flagged for a closer look

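Library cKO 1 lay far below the other 3 cKO libraries for 3 of the genes and for 1 transcript, by Dixon's test at the 95% level, which flags about 1 in 20 groups by chance. Of 26 groups examined, 4 were flagged. Bsn stood at 17.44 FPKM in cKO 1, against 24.24 to 25.45 FPKM in the other cKO libraries. Rims1 stood at 25.6 FPKM in cKO 1, against 35.48 to 36.49 FPKM in the others. Erc1 stood at 22.2 FPKM in cKO 1, against 38.66 to 39.38 FPKM in the others. The transcript Bsn-201 stood at 7.756 FPKM in cKO 1, against 16.21 to 16.91 FPKM in the others.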

How the results depend on the processing

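None of the 10 genes was called between cKO and wild type under any alternative run, the replicate block included, which left 0 of 10. Over all genes 3 were called there, against 1 without a filter, without trend and robust settings or with the Xist covariate, 1 to 3 when 1 library was left out, and 4 with the replicate block. No gene was called lower in cKO, and so Auts2 was not called, without a filter, without trend and robust settings or with the Xist covariate. The same held with cKO 2, cKO 3, cKO 4 or wild type 2 left out. Same-numbered cKO and wild type libraries correlated at 0.176, 0.017, -0.039 and 0.066 and not every one best with its own number, so they share only a number. Signs turned in the cKO comparison, none of them called: with length and GC trends removed Pclo was 0.041, Bsn 0.062, Erc1 0.031 and Erc2 0.016, with the Xist covariate Pclo was 0.052, Erc1 0.030 and Erc2 0.011, and on protein-coding transcripts Ppfia2 was 0.001. Leaving out 1 library gave -0.183 to 0.164 for Pclo, -0.103 to 0.071 for Bsn, -0.187 to 0.052 for Unc13a, -0.106 to 0.161 for Erc1, -0.061 to 0.048 for Erc2 and -0.161 to 0.050 for Syn1, each highest without cKO 1, and, with no change of sign, -0.233 to -0.064 for Rims2, 0.063 to 0.266 for Rims1 and 0.07 to 0.293 for Syt1. Against IgG, 3406 genes and 7 members were called. Without trend and robust settings these were 1876 and 2, with quantile scaling 4 members, without a filter or with median-ratio scaling 5 (Rims1 and Syt1 lost), with length and GC trends removed 4 members and Bsn at -0.012, with 1 library left out 0 to 1806 genes and 0 to 4 members, lowest without IgG A, and with the replicate block 3455 and 8. Syn1 ran from -0.348 to 0.21 over left-out libraries. Against input, 5188 genes and 9 members were called, 1395 to 3471 genes and 4 to 8 members with 1 library left out, and 5222 and 9 with the replicate block. With quantile scaling or without trend and robust settings 6 members were called (Rims1, Erc1 and Erc2 lost), Erc2 being 0.085 with quantile scaling. Syn1 ran from -0.267 to 0.149 over left-out libraries there. With 1 library left out, the lone library of a RIP, IgG or input group is assumed to vary like the other group. Causes of these shifts were not tested. Unknown depth and 2 libraries a group limit the pull-down results.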
